A study of Mus musculus with 12 samples.

Results

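The integrin and laminin genes were taken from the count table by symbol, as every gene named Itga or Itgb with a chain number or letter and every gene named Lama, Lamb or Lamc with a chain number. The rule found 38 of 25239 genes, 27 integrin chains and 11 laminin chains, and used no measured value. These 2 families were nevertheless chosen with earlier results of these data known. The low-count filter kept 25 of the 27 integrins and 11 of the 11 laminins among 14901 genes tested. The libraries were made from live CD45-, CD31-, SCA1+ cells sorted from the back skin of male wild type C57BL/6 mice aged 8 weeks, and the labels call these cells SCA1+ fibroblasts. Of the 4 groups with 3 mice each, NW was skin without a wound. The others came from full-thickness excisional wounds made with a 4 mm punch and taken after 16 hours (16H), after 1.5 days (1_5D) or after 3 days (3D). The gate removed leukocytes by CD45 and endothelium by CD31 and used no marker against epithelial cells. In such bulk libraries, fewer cells of a type and less RNA per cell cannot be told apart.

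Integrins are receptors of 1 alpha and 1 beta chain that span the cell membrane and tie the matrix outside the cell to the actin or keratin skeleton inside it. The alpha chain largely sets the ligand: fibronectin and other proteins with an RGD sequence, collagen, or laminin. Laminins are trimers of an alpha, a beta and a gamma chain that form the sheets of basement membranes, and different trimers lie under epidermis, around vessels and around stromal cells. In skin wounds, fibroblasts enter a provisional matrix rich in fibronectin, while the epidermis rests on a laminin sheet held by hemidesmosomes.

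The stretches of DNA just before the start sites of 4 chains are printed because the results turn on them: Itga5 and Itgb1 make up the main fibronectin receptor, Lamb1 had the largest log2 change among the laminins at 3 days, and Itga11 was lower at 16 hours than at any other time. Each holds the 250 bases before the RefSeq start, 5′ to 3′ on the gene's strand, in build GRCm38.p6 (the mm10 coordinates). Capitals mark a GC box (GGGCGG on either strand, so also CCGCCC) or a TEAD match (GGAATG on either strand). The windows are chr15:103366792-103367041 (minus strand) for Itga5, chr8:128685404-128685653 (plus strand) for Itgb1, chr12:31265043-31265292 (plus strand) for Lamb1 and chr9:62677605-62677854 (plus strand) for Itga11.
Itga5: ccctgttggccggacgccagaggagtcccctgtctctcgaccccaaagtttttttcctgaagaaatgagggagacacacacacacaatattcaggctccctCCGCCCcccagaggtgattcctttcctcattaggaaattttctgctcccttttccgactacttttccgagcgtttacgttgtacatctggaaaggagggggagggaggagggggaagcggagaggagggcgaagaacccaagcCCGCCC
Itgb1: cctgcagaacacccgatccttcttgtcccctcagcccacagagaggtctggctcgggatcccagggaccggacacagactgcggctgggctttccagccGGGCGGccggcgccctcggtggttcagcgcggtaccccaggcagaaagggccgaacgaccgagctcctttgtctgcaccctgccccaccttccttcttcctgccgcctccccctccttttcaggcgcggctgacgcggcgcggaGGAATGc
Lamb1: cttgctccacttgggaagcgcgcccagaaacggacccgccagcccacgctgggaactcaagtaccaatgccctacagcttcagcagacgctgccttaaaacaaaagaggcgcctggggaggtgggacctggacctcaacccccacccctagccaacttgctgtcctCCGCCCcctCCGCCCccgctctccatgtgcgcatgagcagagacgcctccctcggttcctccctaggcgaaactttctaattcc
Itga11: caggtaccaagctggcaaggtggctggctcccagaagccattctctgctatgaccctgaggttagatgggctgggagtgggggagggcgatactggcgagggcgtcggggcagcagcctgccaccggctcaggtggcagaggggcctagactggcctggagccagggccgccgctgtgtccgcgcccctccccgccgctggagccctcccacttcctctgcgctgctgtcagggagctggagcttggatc

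RefSeq promoters were matched for 24 of the 38 members, with 27 windows. A member gene was counted when any of its windows held the letters, while the background counted each promoter, so the shares are not fully alike. The GC box letters stood in the windows of 8 of these 24 genes, Itga5, Itgb1 and Lamb1 among them, against 32.7% of 32851 promoters of the same length. The TEAD letters stood in 3 of 24, Itga10, Itgb1 and Lamb3, against 12.6% of all promoters. The AP-1 letters TGANTCA, searched on both strands, stood in 1 of 24, Itgax, against 6.75%. The CArG box, searched by its consensus, stood in 2 of 24, Itgb6 and Lama2, against 1.47%. The window of Itga11 held none of these letters. No searched motif overlapped another in the 4 printed windows.

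The libraries held 26389453 to 43493475 counts assigned to genes. Levels are TMM-normalised CPM, a gene's count set against its library's scaled total. Summed over 11 fibroblast genes, with Col1a2 and Col3a1 as the most abundant, the level was 85040 to 186775 CPM in NW, 38573 to 104645 CPM at 16 hours, 85836 to 107119 CPM at 1.5 days and 117051 to 237053 CPM at 3 days. Of these 11 genes 1 rose and 5 fell at 16 hours (median log2 -1.24), 3 rose and 2 fell at 1.5 days, and 3 rose and 1 fell at 3 days. Keratinocyte markers were also present: the summed level of 18 genes, with Krt14 and Krt5 as the most abundant, was 20924, 39109 and 32657 CPM in NW, 14410, 8315 and 8977 CPM at 16 hours, 5877, 7241 and 4061 CPM at 1.5 days, and 933, 9358 and 13002 CPM at 3 days. Every wound library lay below every NW library, 3D replicate 1 stood far below the other libraries of its group, and against NW 6, 15 and 12 of the 18 markers fell at the 3 times in order of time, with none rising. None of the 18 was at 0 in any library but 3D replicate 1, where 1 was. Because epidermal cells make several of the chains, each comparison was also fitted with the mean log2 CPM of these markers as a covariate, called the keratinocyte score below. Of 34 member calls against NW, all 34 kept their direction with the score and 13 kept an adjusted p below 0.05. The share of all genes that kept a call was not counted, so the 13 of 34 cannot be set against a background. Since the score was lower in all wound libraries, its part and that of wounding are only partly separable in these fits, and its part in the results was not tested otherwise.

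Differences were tested with edgeR's quasi-likelihood test over all 14901 genes, with Benjamini-Hochberg adjustment, and a gene is said to have risen or fallen when its adjusted p was below 0.05. At 16 hours 6 of 25 tested integrins rose and 4 fell, and 0 of 11 laminins passed; over all genes 24.7% passed, 13.5% up and 11.2% down. At 1.5 days 6 integrins rose and 2 fell, and 2 laminins rose and 1 fell, against 24.5% of all genes (13.7% up, 10.8% down). At 3 days 7 integrins rose and 3 fell, and 2 laminins rose and 1 fell, against 21.1% of all genes (12% up, 9.15% down). Some difference among the 4 groups was found for 12 of 25 integrins and 3 of 11 laminins, against 29.7% of all genes. The 3 laminins of 11 are near that background.

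These counts rest on few libraries. Without NW replicate 2 the integrins that passed numbered 5 rather than 8 at 1.5 days, and without NW replicate 2 or 3D replicate 2 they numbered 6 rather than 10 at 3 days. Without NW replicate 3, 7 integrins rather than 12 passed the test of any difference. The share of all genes that passed in these reduced fits was not counted, so the drops cannot be called particular to the integrins. The median log2 change of the tested integrins was 0.11, 0.63 and 0.54 at the 3 times, beside -0.04, 0.01 and 0.00 over all genes. For the laminins it was 0.30, -0.33 and 0.01. The 3 comparisons share the NW libraries, so they are not independent of each other.

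Both chains of the main fibronectin receptor rose at each time. Itga5, the alpha chain of the main fibronectin receptor, stood at 137, 73.2 and 66.9 CPM in the NW libraries. It reached 867, 829.7 and 536 CPM at 16 hours, 1146, 1129 and 1334 CPM at 1.5 days and 1099, 912 and 672 CPM at 3 days. The lowest wound library exceeded the highest NW library at each time. The rise was 8.06-fold at 16 hours (log2 3.01, SE 0.32, adjusted p = 5.67e-05), 13.04-fold at 1.5 days (log2 3.70, SE 0.33, adjusted p = 2.2e-05) and 9.69-fold at 3 days (log2 3.28, SE 0.32, adjusted p = 3.38e-05). With the keratinocyte score the log2 changes were 2.72, 3.23 and 2.82, and all 3 still passed (adjusted p = 0.0009, 0.00403 and 0.0022).

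Itgb1, the beta chain that pairs with Itga5 and with most other alpha chains, stood at 478, 369 and 421 CPM in NW. The wound libraries held 967, 902 and 626 CPM at 16 hours, 737, 959 and 831 CPM at 1.5 days and 1318, 1171 and 963 CPM at 3 days. All were above NW. Itgb1 rose 1.97-fold, 1.99-fold and 2.72-fold (log2 0.98, 0.99 and 1.44, SE 0.22, 0.22 and 0.23; adjusted p = 0.00691, 0.00626 and 0.000834). None passed with the keratinocyte score, where its log2 changes were 0.88, 0.85 and 1.30 (adjusted p = 0.076, 0.295 and 0.0547).

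The remaining RGD receptors split by chain. Itgav, the alpha chain shared by several RGD receptors that bind vitronectin and latent TGF-beta, stood at 107, 45.0 and 102 CPM in NW, and at 266, 255 and 164 CPM at 16 hours. It held 114, 229 and 212 CPM at 1.5 days and 250.4, 262 and 152 CPM at 3 days. Every wound library was above NW, though 1_5D replicate 1 by little. Itgav rose by log2 1.43, 1.13 and 1.39 (SE 0.36 each; adjusted p = 0.0125, 0.0362 and 0.0164). The call at 1.5 days was lost without NW replicate 2, NW replicate 3, 1_5D replicate 2 or 1_5D replicate 3 (adjusted p = 0.0569 to 0.114), and that at 3 days without NW replicate 2, 3D replicate 1 or 3D replicate 2 (0.0521 to 0.0599). No Itgav call held with the keratinocyte score (adjusted p = 0.0898, 0.473 and 0.272).

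Itgb5, a partner of Itgav in the vitronectin receptor, moved down and back. It stood at 472, 262 and 410.0 CPM in NW, 191, 185 and 156 CPM at 16 hours, 291, 375 and 452 CPM at 1.5 days and 564, 681 and 394 CPM at 3 days. The 16-hour libraries lay below all others. Itgb5 fell at 16 hours, with a log2 change of -1.11 (SE 0.27; adjusted p = 0.00983, or 0.0526 with the keratinocyte score). At 1.5 and 3 days its log2 difference from NW was -0.03 and 0.52, and neither passed (adjusted p = 0.944 and 0.189). The mean summed level of the fibroblast genes was likewise lowest at 16 hours, at 64540 CPM against 142991 in NW and 184025 at 3 days, though the 16-hour and NW libraries overlapped, and its part in the Itgb5 result was not tested.

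Itgb3, the other beta chain of vitronectin binding, ranged from 21.5 to 48.4 CPM in NW, 11.9 to 49.3 CPM at 16 hours, 42.3 to 55.6 CPM at 1.5 days and 38.1 to 86.2 CPM at 3 days, with overlap at every time. Its log2 differences of -0.02, 0.58 and 0.94 did not pass (adjusted p = 0.984, 0.380 and 0.164). Itgb6, an Itgav partner made by epithelial cells, stood at 52.8, 69.7 and 45.6 CPM in NW, 57.0, 9.64 and 24.9 CPM at 16 hours, 5.43, 9.995 and 5.84 CPM at 1.5 days and 1.95, 11.9 and 18.03 CPM at 3 days. The 16-hour group overlapped NW and the later groups did not. Itgb6 fell at both, with log2 changes of -2.98 and -2.40 (SE 0.71 and 0.69; adjusted p = 0.00857 and 0.0261). The 3-day call was lost without NW replicate 2, 3D replicate 1 or 3D replicate 2 (adjusted p = 0.0562 to 0.0694), and with the keratinocyte score the log2 differences were -0.41 and -0.47 (adjusted p = 0.865 and 0.809).

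Itgb8, an Itgav partner that binds latent TGF-beta, had 0 counts in the 3 NW libraries, 0 to 0.331 CPM at 16 hours, 0.615 to 0.996 CPM at 1.5 days and 0.0407, 4.74 and 1.77 CPM at 3 days. Against 3 counts over the NW group, or 0.0346 CPM, its mean was at least 22.6-fold higher at 1.5 days and at least 63.2-fold higher at 3 days (adjusted p = 0.0293 and 0.0172). Its level stayed low throughout. The 1.5-day call was lost without NW replicate 1, 2 or 3 or 1_5D replicate 3 (adjusted p = 0.0601 to 0.0685) and with the keratinocyte score (0.105). Without 3D replicate 2 the 3-day call was lost (adjusted p = 0.05003) and the bound was 26.2-fold, and at 16 hours Itgb8 did not pass (0.0813; 0.0468 without 3D replicate 1). Itga2b, the platelet fibrinogen receptor chain, ranged from 9.28 to 31.9 CPM over the 12 libraries. None of its log2 differences of 0.55, 0.64 and -0.36 passed (adjusted p = 0.262, 0.196 and 0.508). Beside it, 4 platelet markers summed to 0.0658 to 1.41 CPM in NW. They summed to 1.10 to 2.05, 1.65 to 6.22 and 1.58 to 4.64 CPM at the 3 times. Of the 4, 1 rose at each time, and the part of platelets in the Itga2b level was not tested.

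**Figure D1:**
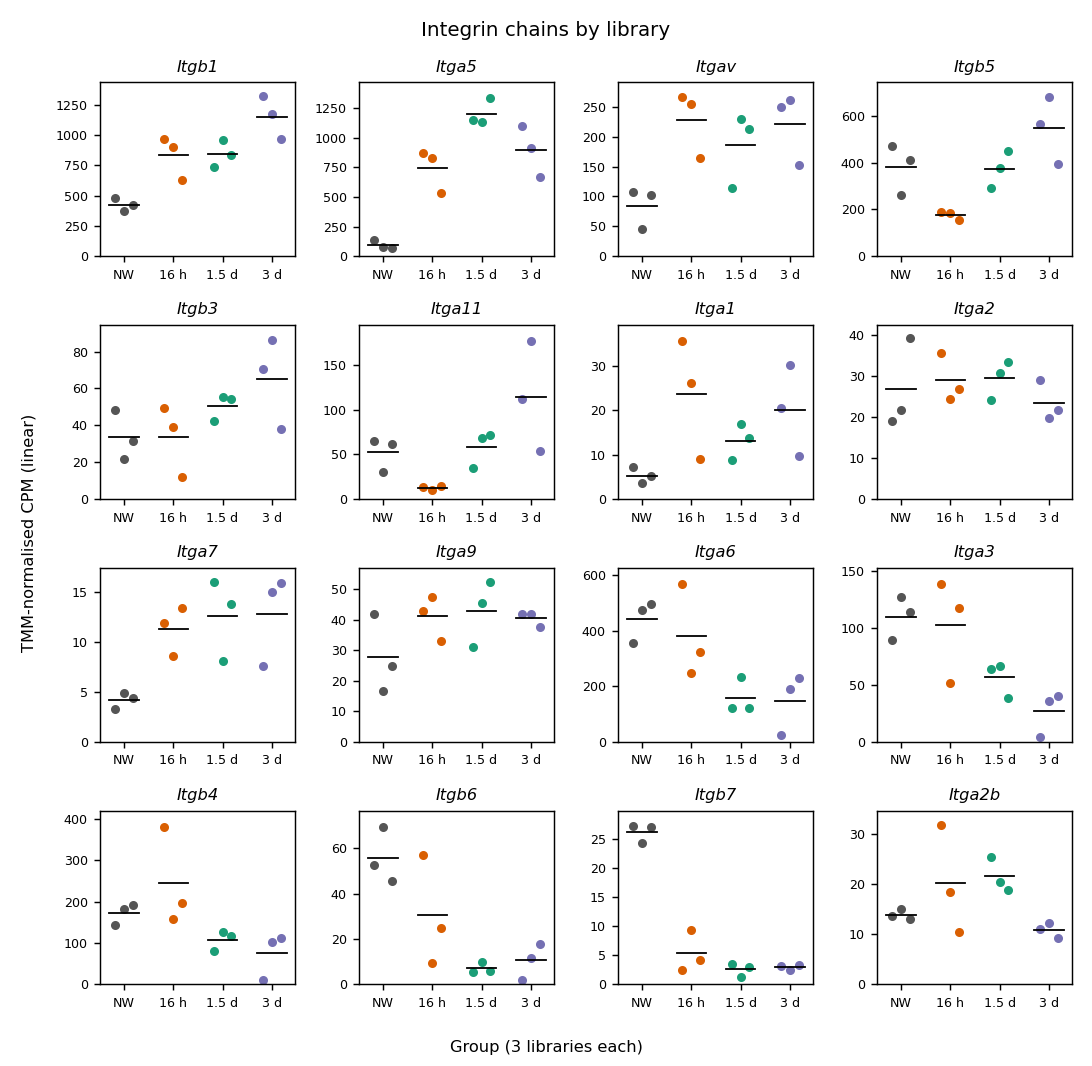
Levels of the 16 integrin chains that reached 5 CPM in some group, 1 panel a chain: TMM-normalised CPM (linear axis) in each of 12 libraries by group, with bars at the group means. Itga5 lies between 66.9 and 137 CPM in NW and between 536 and 1334 CPM in the wound libraries, and Itga11 is lowest at 16 hours, at 10.1 to 14.5 CPM.

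The 4 collagen receptor alpha chains, all of them partners of Itgb1, did not move together. Itga11, which binds fibrillar collagen and is made by fibroblasts, stood at 64.9, 30.2 and 61.7 CPM in NW and at 13.005, 10.1 and 14.5 CPM at 16 hours. It held 35.1, 68.4 and 71.5 CPM at 1.5 days and 112, 177 and 54.0 CPM at 3 days. The 16-hour libraries were below every other library. Itga11 fell at 16 hours, with a log2 change of -2.06 (SE 0.43; adjusted p = 0.00421), and this held with the keratinocyte score (-2.04, adjusted p = 0.0334). At 1.5 and 3 days its log2 difference from NW was 0.16 and 1.13, and neither passed (adjusted p = 0.814 and 0.069; at 3 days 0.0179 without 3D replicate 3). The summed fibroblast genes had their lowest mean at 16 hours too, with 5 of 11 falling, and their part in the Itga11 result was not tested.

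Itga1, a receptor for collagen IV and other collagens, stood at 7.21, 3.52 and 5.11 CPM in NW, 35.8, 26.1 and 8.95 CPM at 16 hours, 8.76, 16.9 and 13.7 CPM at 1.5 days and 20.6, 30.3 and 9.61 CPM at 3 days. All wound libraries exceeded NW. Itga1 rose 4.48-fold at 16 hours (log2 2.16, SE 0.53, adjusted p = 0.0101) and 3.82-fold at 3 days (log2 1.93, SE 0.52, adjusted p = 0.0196), and at 1.5 days its log2 difference was 1.31 (adjusted p = 0.0805; 0.0407 without 16H replicate 3). The 3-day call was lost without NW replicate 2, NW replicate 3, 3D replicate 1 or 3D replicate 2 (adjusted p = 0.051 to 0.0764) and with the keratinocyte score (0.190). Itga2, a collagen I receptor, ranged from 19.1 to 39.4 CPM over all 12 libraries, and its log2 differences of 0.11, 0.14 and -0.18 did not pass (adjusted p = 0.818, 0.775 and 0.711). Itga10, known from cartilage, was below 1 CPM in every library.

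The laminin receptor chains parted into Itga7, which rose, and 3 chains of epithelium, Itga6, Itgb4 and Itga3. Itga7, known as the laminin receptor of muscle, stood at 3.28, 4.87 and 4.38 CPM in NW, 11.9, 8.64 and 13.4 CPM at 16 hours, 16.0, 8.12 and 13.9 CPM at 1.5 days and 7.57, 15.04 and 15.9 CPM at 3 days. No wound library overlapped NW. Itga7 rose by log2 1.44, 1.60 and 1.62 (SE 0.38 each; adjusted p = 0.0149, 0.00851 and 0.0093). With the keratinocyte score the changes were 1.93, 2.36 and 2.23, and the 1.5-day call was lost (adjusted p = 0.0793). The summed level of 5 skeletal muscle markers was 1.86 to 16.9 CPM in NW and 1.897 to 7.50 CPM in the wound libraries.

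Itga6, which joins Itgb4 in hemidesmosomes, stood at 354, 473 and 497 CPM in NW, 569, 248 and 323 CPM at 16 hours, 120.2, 234 and 122 CPM at 1.5 days and 25.4, 191 and 228 CPM at 3 days. At 1.5 and 3 days all libraries lay below NW. Its log2 differences were -0.22, -1.48 and -1.58 and did not pass (adjusted p = 0.820, 0.0825 and 0.0719; at 1.5 days 0.00882 without 3D replicate 1). Itga6 also passed at 1.5 days with the DESeq2 test and with only the 2 groups compared. At 3 days it passed with the DESeq2 test and with limma-voom. Of 22 alternative fits, 19 at 1.5 days and 20 at 3 days left it uncalled. Itgb4, whose only partner is Itga6, stood at 144, 183 and 193 CPM in NW, 382, 159 and 197 CPM at 16 hours, 80.5, 126 and 116 CPM at 1.5 days and 11.3, 102 and 111 CPM at 3 days. Its log2 differences of 0.50, -0.69 and -1.21 did not pass (adjusted p = 0.563, 0.422 and 0.163). As 9.55% of its exon length is shared with B230344G16Rik and Galk1, some of its counts are uncertain.

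Itga3, a laminin receptor chain of the epidermis, stood at 89.5, 127 and 114 CPM in NW, 139, 51.8 and 117 CPM at 16 hours, 63.9, 67.0 and 38.8 CPM at 1.5 days and 4.39, 36.1 and 40.2 CPM at 3 days. It fell at 3 days, with a log2 change of -2.03 (SE 0.60; adjusted p = 0.028), while its differences of -0.10 and -0.96 at the earlier times did not pass (adjusted p = 0.922 and 0.249). The call was lost without NW replicate 2 or NW replicate 3 (adjusted p = 0.0574 to 0.0701), and with the keratinocyte score the log2 difference was -0.20 (adjusted p = 0.910).

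The leukocyte chains were scarce but for Itgb7. Itgb7, a lymphocyte chain that pairs with Itga4 or Itgae, stood at 27.2, 24.2 and 27.1 CPM in NW, 2.57, 9.28 and 4.26 CPM at 16 hours, 3.5, 1.21 and 3.05 CPM at 1.5 days and 3.13, 2.51 and 3.36 CPM at 3 days. NW lay apart from every wound library. Itgb7 fell, with log2 changes of -2.28, -3.34 and -3.12 (SE 0.48, 0.51 and 0.50; adjusted p = 0.00472, 0.000663 and 0.00109), and all 3 calls held with the keratinocyte score (adjusted p = 0.0207, 0.0238 and 0.0234). Its partner Itgae was below 1 CPM in every library and Itga4 below 2 CPM. The summed level of 7 lymphocyte markers overlapped between NW (15.1 to 43.8 CPM) and the wound groups (10.1 to 39.8 CPM). Thy1 held nearly all of this sum (25.8 of a mean of 26.2 CPM in NW), and 3 to 5 of the 7 were at 0 in each library. Only 2 could be tested, so the sum says little about lymphocytes, and their part in the Itgb7 result was not tested.

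Itgam, the alpha chain of the complement receptor of myeloid cells, stood at 0, 0.0658 and 0.265 CPM in NW, 3.8, 5.81 and 2.85 CPM at 16 hours, 0.733, 1.77 and 0.465 CPM at 1.5 days and 3.95, 4.3 and 2.1 CPM at 3 days. It rose at each time (log2 5.16, 3.10 and 4.89, SE 1.03, 0.96 and 1.02; adjusted p = 0.0033, 0.0326 and 0.00487), from a level so near 0 that the fitted change depends on the prior count. The 1.5-day call was lost without NW replicate 1, NW replicate 2 or 1_5D replicate 2 (adjusted p = 0.0587 to 0.114). The calls at 1.5 and 3 days were lost with the keratinocyte score (adjusted p = 0.308 and 0.0693). Beside it, 8 neutrophil markers summed to 0.493 to 2.78 CPM in NW, with 5 or 6 of the 8 at 0, and to 9.46 to 21.8, 5.599 to 9.66 and 1.51 to 5.78 CPM at the 3 times. The 12 macrophage and monocyte markers summed to 50.8 to 115 CPM in NW, with 4 to 7 of them at 0, and to 53.2 to 119 CPM in the wound libraries, with at most 3 at 0; Csf1r held most of the NW sum. Of the 12, 5 rose at each time (1 fell at 16 hours), with median log2 changes of 1.87, 2.099 and 2.23, and of 6 neutrophil markers tested 4, 3 and 1 rose. The part of such cells in the Itgam result was not tested.

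Of the other chains below 5 CPM in every group mean, Itgb2, the shared leukocyte beta chain, ranged from 0 to 10.1 CPM, Itgax and Itgal from 0 to 2.44 and 0 to 3.16 CPM, and none passed against NW, though Itgb2 did at 16 hours without NW replicate 1 (adjusted p = 0.0447). Itga8, an RGD receptor chain of smooth muscle and mesenchyme, had 0.862 to 1.32 CPM in NW, 0 counts at 16 hours, 0.4 to 0.996 CPM at 1.5 days and 0, 1.95 and 2.28 CPM at 3 days. Against 3 counts over the 16-hour group, or 0.0323 CPM, the NW mean was at least 33.9-fold higher (adjusted p = 0.0154; 0.192 with the keratinocyte score). Beside it, 8 pericyte and vascular smooth muscle markers summed to 52.9 to 98.5 CPM in NW, 17.6 to 36.3 CPM at 16 hours, 22.5 to 36.3 CPM at 1.5 days and 50.5 to 104 CPM at 3 days. Of the 7 tested, 4 fell at 16 hours, 2 at 1.5 days and 0 at 3 days, and their part in the Itga8 result was not tested. Itgad, a myeloid chain, had 0 counts outside the 3-day group and 4 to 7 counts there, and Itgb2l had 0 in all 12 libraries, so neither was tested. A count of 0 in the 16-hour group allows up to 0.0323 CPM.

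Itga9, which binds tenascin and other ligands and pairs with Itgb1, stood at 41.8, 16.8 and 24.8 CPM in NW, and at 42.98, 47.6 and 33.1 CPM at 16 hours. It held 31.1, 45.4 and 52.5 CPM at 1.5 days and 42.0, 41.8 and 37.6 CPM at 3 days. NW replicate 1 lay among the wound libraries. Its log2 differences of 0.57, 0.63 and 0.54 did not pass (adjusted p = 0.200, 0.158 and 0.239), and without NW replicate 1 all 3 did (adjusted p = 0.0306, 0.0245 and 0.0393).

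Among the laminins, Lamb1 and Lama4 rose and Lamc3 fell. Lamb1, the beta chain of many stromal and vessel laminins, stood at 77.9, 64.2 and 58.7 CPM in NW and 104, 121 and 63.2 CPM at 16 hours. It reached 189, 251 and 255 CPM at 1.5 days and 578, 568 and 265 CPM at 3 days. The 16-hour group overlapped NW and the later groups lay above it. Lamb1 rose 3.46-fold at 1.5 days (log2 1.79, SE 0.31, adjusted p = 0.00155) and 7.03-fold at 3 days (log2 2.81, SE 0.33, adjusted p = 0.000107), and its 16-hour difference of 0.52 did not pass (adjusted p = 0.237). With the keratinocyte score the 3-day change was 2.47 and passed (adjusted p = 0.00878), and that at 1.5 days was 1.44 and did not (0.179).

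Lama4, the alpha chain that joins Lamb1 and Lamc1 in laminin of mesenchyme and vessels, stood at 216, 105 and 142 CPM in NW, 384, 352 and 203 CPM at 16 hours, 337, 539 and 609 CPM at 1.5 days and 704, 806 and 347 CPM at 3 days. The last 2 groups lay above NW. Lama4 rose 3.20-fold at 1.5 days (log2 1.68, SE 0.38, adjusted p = 0.00628) and 4.01-fold at 3 days (log2 2.00, SE 0.38, adjusted p = 0.00276). At 16 hours its difference of 1.02 did not pass (adjusted p = 0.0604), though it did without NW replicate 1, 16H replicate 3, 1_5D replicate 1 or 3D replicate 3 (adjusted p = 0.0333 to 0.0486). Neither later call held with the keratinocyte score (adjusted p = 0.277 and 0.105). Endothelial markers, 7 genes, summed to 7.63 to 11.1 CPM in NW, 1.98 to 2.56 CPM at 16 hours and 1.03 to 2.26 CPM at 1.5 days, both below NW, and to 4.23 to 12.49 CPM at 3 days. Of the 6 tested, 2 fell at 16 hours and 0 later, and their part in the Lama4 result was not tested.

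Lamc1, the gamma chain of most laminins, stood at 534, 261 and 352 CPM in NW, 785, 750.0 and 367 CPM at 16 hours, 477, 943 and 981 CPM at 1.5 days and 801, 1142 and 401 CPM at 3 days. The groups overlapped. Its log2 differences of 0.73, 1.06 and 1.03 (SE 0.42 each) did not pass (adjusted p = 0.224, 0.0829 and 0.1004), though the 1.5-day one did without 1_5D replicate 1 (0.0428) and the 3-day one without 3D replicate 3 (0.0365). Lamb2, a beta chain of muscle, nerve and vessel laminins, ranged from 266 to 582 CPM in NW and from 290.4 to 816 CPM in the wound libraries. Its log2 differences of 0.30, 0.33 and 0.25 did not pass (adjusted p = 0.638, 0.603 and 0.717).

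Lama2, the alpha chain of muscle laminin, stood at 229, 131 and 178 CPM in NW, 123, 105 and 61.3 CPM at 16 hours, 89.6, 135 and 122 CPM at 1.5 days and 119, 267 and 84.5 CPM at 3 days. The 16-hour libraries lay below NW and the later ones overlapped it. Its log2 differences of -0.89, -0.63 and -0.19 did not pass (adjusted p = 0.113, 0.261 and 0.776). Lamc3, a gamma chain of restricted expression, stood at 70.1, 23.6 and 33.3 CPM in NW, 16.9, 5.15 and 8.45 CPM at 16 hours, 2.8, 12.4 and 1.31 CPM at 1.5 days and 3.99, 9.65 and 6.61 CPM at 3 days, with NW above all others.

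Lamc3 fell, with log2 changes of -2.94 at 1.5 days and -2.65 at 3 days (SE 0.75 and 0.74; adjusted p = 0.0127 and 0.0232), and its 16-hour difference of -2.06 did not pass (adjusted p = 0.0542; 0.0182 to 0.0479 without 16H replicate 1, 1_5D replicate 2 or 1_5D replicate 3). The 1.5-day call was lost without NW replicate 1 or 1_5D replicate 1 (adjusted p = 0.051 to 0.0515), and the 3-day call without NW replicate 1, 3D replicate 1 or 3D replicate 3 (0.0613 to 0.0926). Neither held with the keratinocyte score (adjusted p = 0.391 and 0.499).

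Lama3 and Lamb3, chains of epidermal laminin at hemidesmosomes, did not pass against NW at any time. Lama3 ranged from 49.2 to 75.5 CPM in NW and stood at 153, 60.0 and 80.5 CPM at 16 hours, 35.2, 66.4 and 40.0 CPM at 1.5 days and 9.24, 87.8 and 129 CPM at 3 days. Lamb3 stood at 198, 162 and 218 CPM in NW, 207, 113 and 124 CPM at 16 hours, 65.4, 142 and 70.7 CPM at 1.5 days and 12.49, 121 and 198 CPM at 3 days. In both chains, 16H replicate 1 and 3D replicate 3 were the highest of their groups and 3D replicate 1 the lowest of all 12 libraries, as it was for the keratinocyte markers. The smallest adjusted p of Lama3 and Lamb3 against NW was 0.258, for Lamb3 at 1.5 days (log2 -1.05; 0.0479 without 3D replicate 1).

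Lama5, the alpha chain of the mature epidermal and vessel basement membrane, stood at 11.6, 24.9 and 32.2 CPM in NW, 30.0, 7.89 and 8.79 CPM at 16 hours, 3.9, 10.6 and 8.3 CPM at 1.5 days and 2.08, 6.37 and 13.4 CPM at 3 days. Its differences of -0.56, -1.59 and -1.65 did not pass (adjusted p = 0.579, 0.105 and 0.103; at 3 days 0.0401 without 3D replicate 3). Lama1, known mainly from the embryo, did not exceed 4.78 CPM in any library and did not pass.

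**Figure D2:**
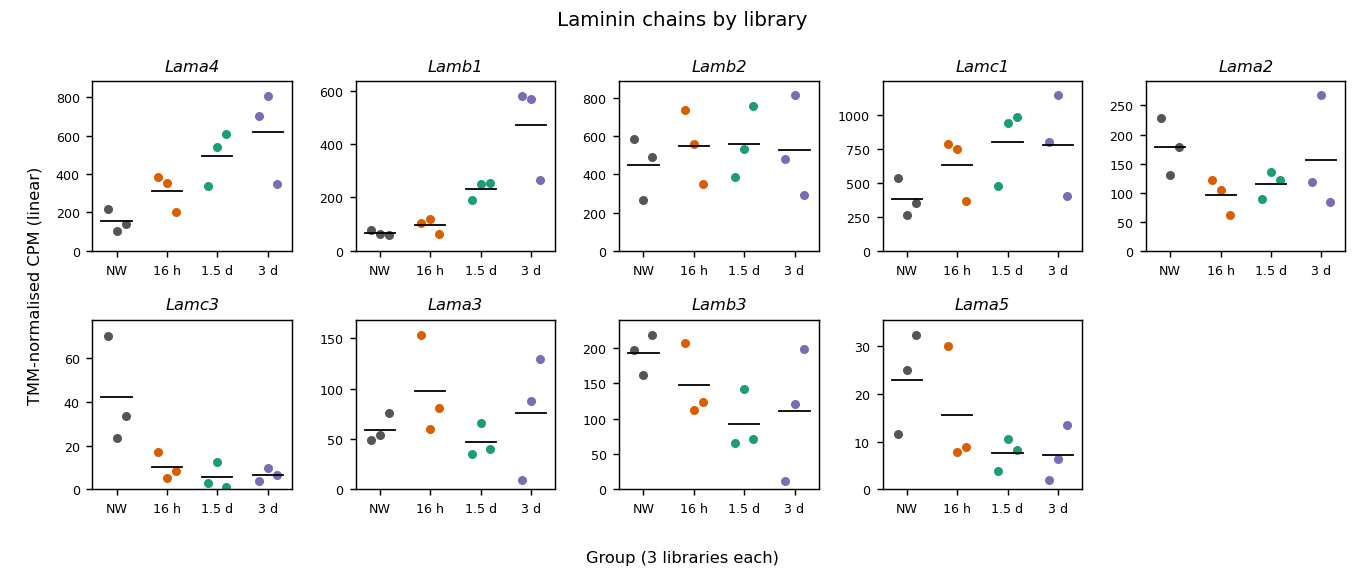
Levels of 9 laminin chains that reached 5 CPM in some group, 1 panel a chain: TMM-normalised CPM (linear axis) in each of 12 libraries by group, with bars at the group means. Lamb1 reaches 265 to 578 CPM at 3 days against 58.7 to 77.9 CPM in NW, while Lama3 and Lamb3 are lowest in 3D replicate 1.

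**Figure D3:**
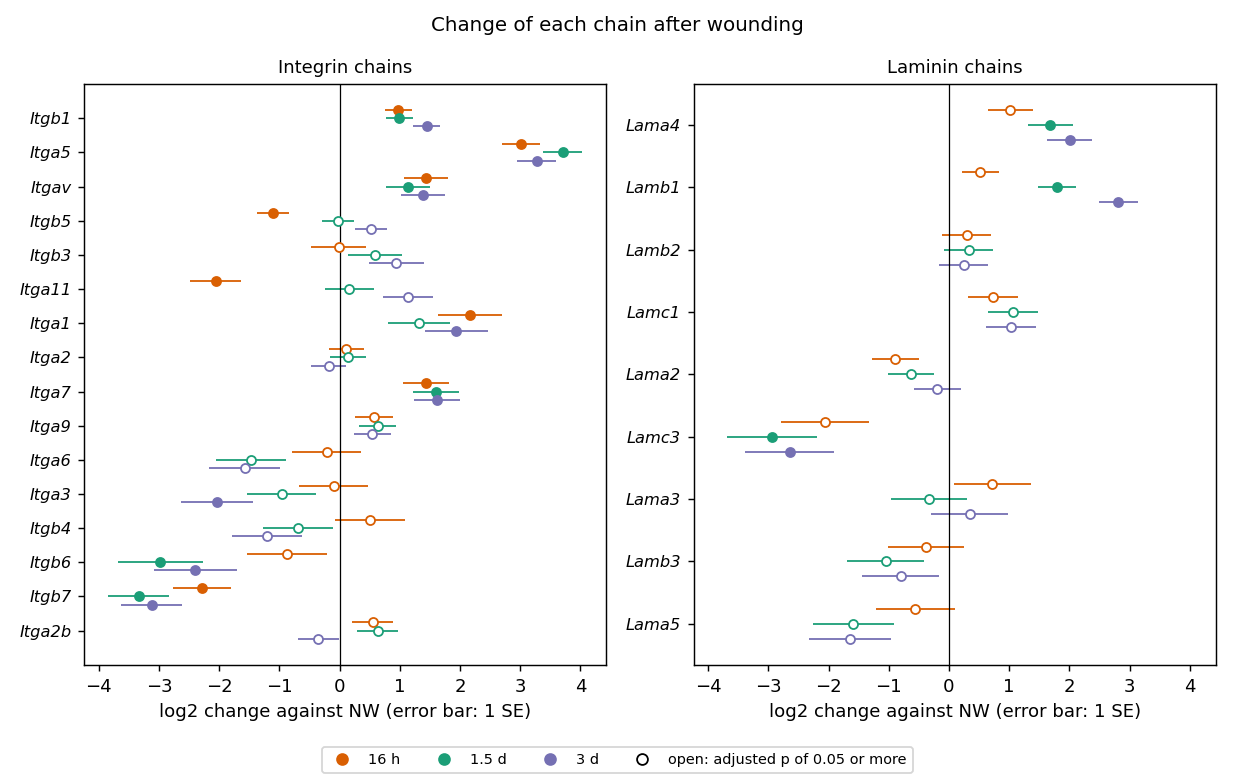
Log2 change against NW of 25 chains that reached 5 CPM in some group, at the 3 wound times, with bars of 1 SE; filled points have an adjusted p below 0.05. Itga5 lies furthest to the right, at 3.01 to 3.70, and Itgb7 and Lamc3 are among the furthest to the left.

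Libraries that did not overlap NW were counted as well, a measure free of the model. At 16 hours non-overlap held for 11 of 25 integrins and 2 of 11 laminins, against 41.3% of all genes. At 1.5 days it held for 13 and 5, against 40.7%, and at 3 days for 14 and 3, against 40.3%. The integrin share at 3 days was the one furthest above its background.

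The epithelial chains were also set against the keratinocyte markers of the same library, as a description with no test. As a percent of the markers' summed CPM, Lama3 was 0.235, 0.138 and 0.231 in NW and 0.599 to 1.06 in the wound libraries. Itgb4 was 0.469 to 0.689 in NW and 0.857 to 2.86 in the wound libraries, and Itga6 was 1.21 to 1.69 in NW and 1.75 to 3.95 in the wound libraries. Lamb3 was 0.415 to 0.944 in NW and 1.11 to 1.96 in the wound libraries. In these 4 chains no wound library overlapped NW. Itgb6, Itga3 and Lama5 did overlap, Itgb6 at 0.140 to 0.252 in NW and 0.0924 to 0.395 in the wound libraries and Lama5 at 0.0554 to 0.0987 and 0.0663 to 0.222. The markers' sum was lower in every wound library than in NW, so a gene at a steady level would rise in this ratio. How many of all genes would separate in it was not counted, so the separation cannot be called particular to these chains.

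In the fits with the keratinocyte score, Lama3 was above NW by log2 2.65, 2.68 and 2.51 at the 3 times (adjusted p = 0.000395, 0.00357 and 0.00121). Without the score Lama3 did not pass at any time (log2 0.72, -0.33 and 0.34; adjusted p = 0.445, 0.748 and 0.751). Lama3 was not alone in this. At 16 hours Itgb4, Itga6, Lamb3 and Itga3 also passed with the score (log2 2.22, 1.49, 1.52 and 1.55, adjusted p = 0.000861, 0.00337, 0.0171 and 0.029). Itgb4 passed at 1.5 days too (log2 2.04, adjusted p = 0.0153), and Itgb6 and Lama5 passed at no time. As the markers were lower in every wound library than in NW, the score and wounding are only partly separable here.

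**Figure D4:**
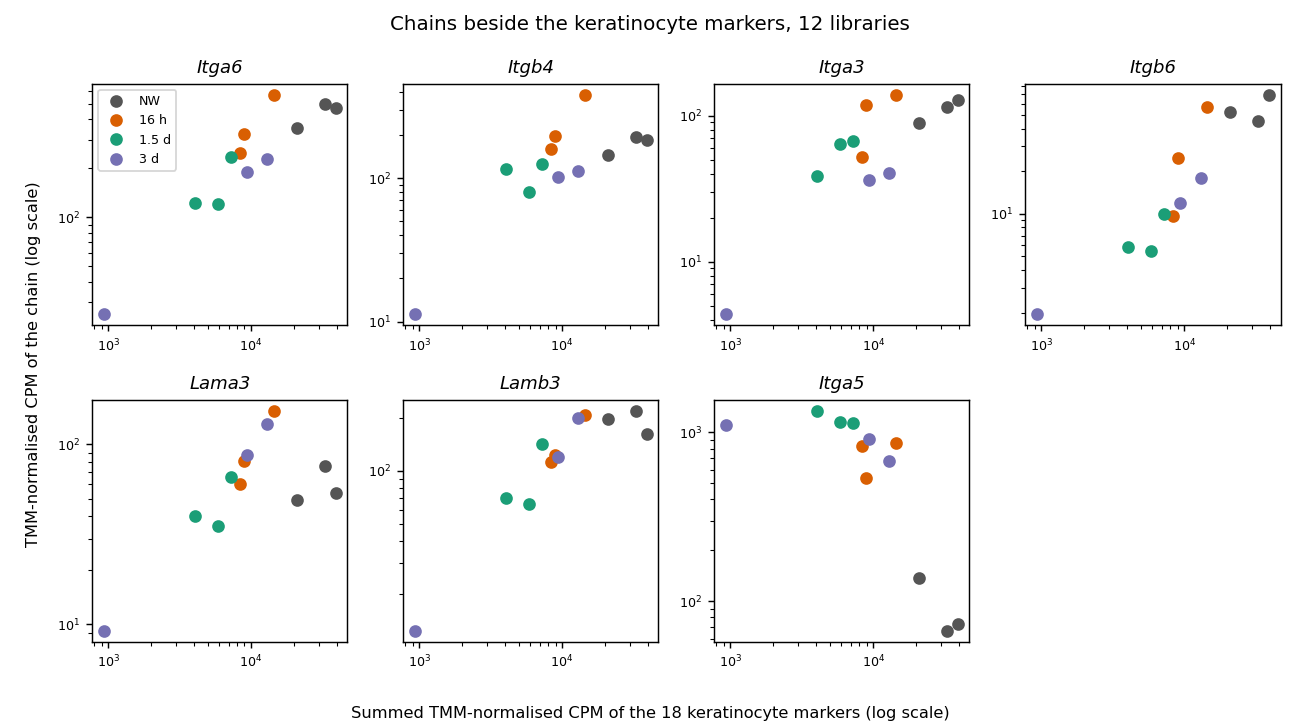
Level of 7 chains (TMM-normalised CPM, log axis) against the summed CPM of 18 keratinocyte markers (log axis) in each of the 12 libraries, coloured by group. The 6 epithelial chains are lowest in 3D replicate 1, where the markers sum to 933 CPM, while Itga5 stands at 1099 CPM there.

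Between wound times few chains differed. From 16 hours to 1.5 days 1 integrin and 1 laminin rose and none fell, against 2.86% of all genes (2.39% up, 0.47% down). They were Itga11 (log2 2.22, SE 0.43, adjusted p = 0.0156) and Lamb1 (log2 1.27, SE 0.31, adjusted p = 0.0457). The Itga11 call was lost without 16H replicate 1, 16H replicate 2 or 1_5D replicate 3 (adjusted p = 0.0554 to 0.0865). The Lamb1 call was lost on leaving out any library but 3D replicate 3 (adjusted p = 0.0536 to 0.133).

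From 16 hours to 3 days 3 integrins and 1 laminin rose, against 9.53% of all genes (5.86% up, 3.67% down). Itga11 rose 9.12-fold (log2 3.19, SE 0.45, adjusted p = 0.000869), Lamb1 4.90-fold (log2 2.29, SE 0.32, adjusted p = 0.000853) and Itgb5 3.09-fold (log2 1.63, SE 0.27, adjusted p = 0.00281), each without overlap. Itga8 also passed (adjusted p = 0.0276), with a 3-day mean at least 43.6-fold above 3 counts over the 16-hour group, but 3D replicate 1 had 0 counts. That call was lost without 16H replicate 1, 2 or 3, 3D replicate 2 or 3D replicate 3 (adjusted p = 0.0619 to 0.0788). From 1.5 to 3 days 0 of 36 members passed with edgeR, against 0.141% of all genes (0.101% up, 0.0403% down). At an unadjusted p below 0.05 there were 3, a count with no share of all genes to set beside it. DESeq2 and limma-voom also called 0. Libraries of the times compared did not overlap for 8 integrins and 1 laminin between 16 hours and 1.5 days (23.4% of all genes), 6 and 1 between 16 hours and 3 days (32.5%), and 4 and 1 between 1.5 and 3 days (13.6%).

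Compared per kilobase of exon (RPKM, the TMM CPM divided by exon length), the order of the chains shifted. In NW the most abundant integrins were Itgb5 (116 ± 32.8 RPKM, SD, n = 3), Itgb1 (101 ± 12.9 RPKM, SD, n = 3) and Itga6 (73.4 ± 12.8 RPKM, SD, n = 3), and the first 2 did not differ beyond their spread. At 1.5 days Itga5 led at 269 ± 25.4 RPKM (SD, n = 3), above Itgb1 at 201 ± 26.5 RPKM (SD, n = 3). At 3 days Itgb1 stood at 274 ± 42.5, Itga5 at 200.1 ± 47.9 and Itgb5 at 166 ± 44.1 RPKM (SD, n = 3), and the last 2 did not differ beyond their spread. Among all 18 alpha chains, Itga5 held 13.7 ± 5.90% of the summed RPKM in NW, 54.2 ± 6.90% at 16 hours, 73.5 ± 5.01% at 1.5 days and 65.4 ± 8.09% at 3 days (SD, n = 3). Itga6 held 48.4 ± 8.16% in NW, 20.3 ± 5.70% at 16 hours, 7.19 ± 2.83% at 1.5 days and 8.68 ± 7.07% at 3 days (SD, n = 3).

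Of the 9 beta chains, Itgb1 held 37.2 ± 1.86% of the summed RPKM in NW and 64.5 ± 3.69%, 58.5 ± 4.02% and 58.7 ± 4.85% at the 3 times (SD, n = 3). Itgb5 held 42.1 ± 5.63% in NW, 17.9 ± 2.22% at 16 hours, 32.8 ± 3.96% at 1.5 days and 35.1 ± 4.09% at 3 days (SD, n = 3). Of the laminin beta chains, Lamb1 held 8.79 ± 2.37% in NW, 11.3 ± 2.62% at 16 hours, 25.2 ± 2.63% at 1.5 days and 40.2 ± 11.3% at 3 days (SD, n = 3). Of the laminin alpha chains, Lama4 held 48.4 ± 5.56%, 71.5 ± 4.90%, 82.5 ± 2.63% and 80.0 ± 8.88% from NW to 3 days, and Lama2 35.5 ± 0.521%, 13.7 ± 0.641%, 12.2 ± 1.45% and 12.2 ± 3.54% (SD, n = 3). These shares are levels within a class, so a chain's share can move with its neighbours' levels.

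**Figure D5:**
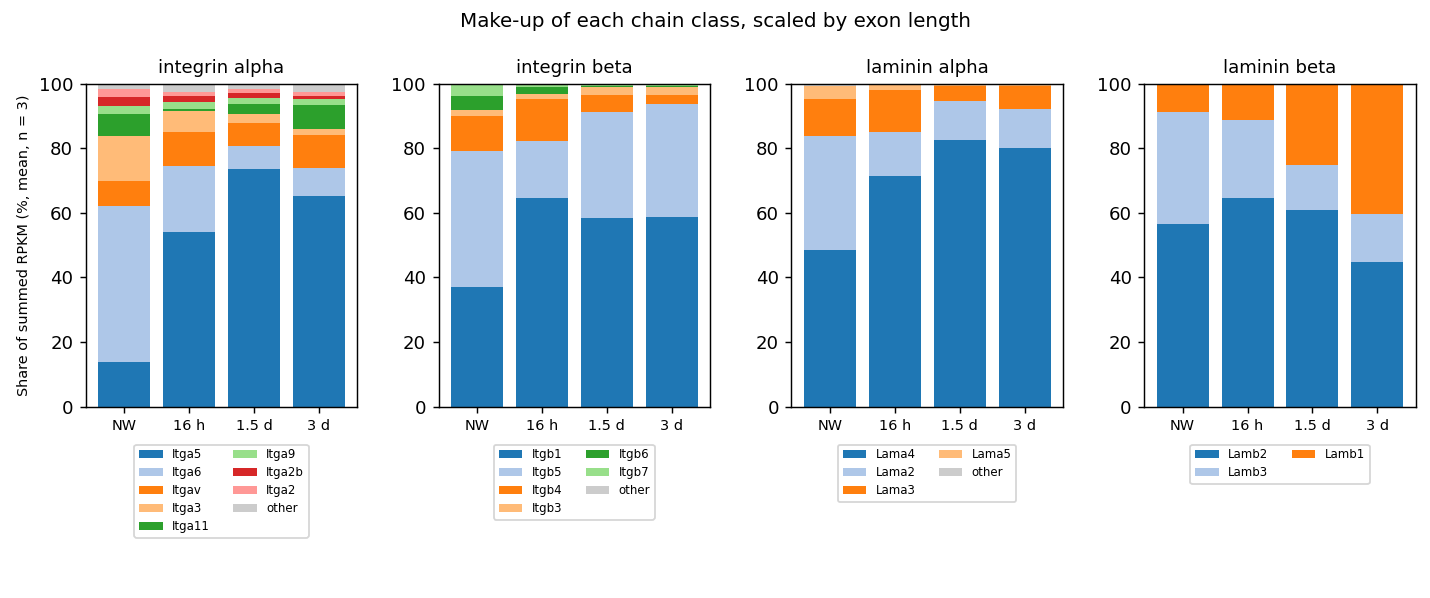
Share of each chain in the summed RPKM of its class (percent, mean of 3 libraries), for integrin alpha and beta and laminin alpha and beta chains, by group. Itga5 grows from 13.7% of the alpha chains in NW to 73.5% at 1.5 days, and Lamb1 from 8.79% of the laminin beta chains to 40.2% at 3 days.

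Genes that work with these chains were taken from 3 lists, which were chosen with earlier results of these data known. Of 30 adhesion partners of integrins, 6 rose and 3 fell at 16 hours and 11 rose and 4 fell at 1.5 days. At 3 days 11 rose and 3 fell, beside 24.7%, 24.5% and 21.1% of all genes that passed at the 3 times. The median log2 change was 0.21, 0.57 and 0.68, beside -0.04, 0.01 and 0.00 over all genes. Tln2, a talin that binds the tail of beta chains, went from 12.0 ± 4.06 CPM in NW (SD, n = 3) to 64.6 ± 20.3 CPM at 16 hours (SD, n = 3) and rose by log2 2.42, 2.41 and 2.79 (adjusted p = 0.00038, 0.000417 and 0.000168). Ilk, the integrin-linked kinase scaffold, rose at 1.5 and 3 days by log2 0.87 and 0.88 (adjusted p = 0.00463 and 0.00494). Bcar1, an adaptor of focal adhesions, fell with log2 changes of -1.28, -1.72 and -1.52, and Lims2, a partner of Ilk, with -2.11, -1.42 and -2.03, with every adjusted p at most 0.00822.

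Of 24 integrin ligands, 22 were tested; 3 rose and 4 fell at 16 hours, 9 rose and 4 fell at 1.5 days and 11 rose and 1 fell at 3 days, beside the same 24.7%, 24.5% and 21.1% of all genes. The median log2 change was -0.14, 0.15 and 0.76, against -0.04, 0.01 and 0.00 over all genes. Tnc, the matrix protein tenascin C that Itga9 and Itgav receptors bind, stood at 17.2, 11.6 and 10.2 CPM in NW and at 868 to 4086 CPM in the wound libraries, and rose by log2 7.32, 7.64 and 7.91 (adjusted p = 1.04e-05, 7.27e-06 and 7.27e-06). Postn, periostin, rose by log2 1.76 at 1.5 days and 3.88 at 3 days (adjusted p = 0.00118 and 1.28e-05). Vcam1, a ligand of Itga4 and Itga9 receptors, rose by log2 2.16, 2.74 and 2.79 (adjusted p = 0.000208, 4.89e-05 and 4.21e-05). Tgfb3, whose latent form Itgav receptors bind, fell at 16 hours and 1.5 days (log2 -2.22 and -0.98) and rose at 3 days (log2 1.16) (adjusted p = 0.000418, 0.0323 and 0.017).

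Of 26 basement membrane partners of laminin, 5 rose and 6 fell at 16 hours, 5 rose and 7 fell at 1.5 days and 5 rose and 4 fell at 3 days, again beside 24.7%, 24.5% and 21.1% of all genes. The median log2 change was -0.67, -0.77 and -0.31, against -0.04, 0.01 and 0.00 over all genes. The part of keratinocytes in the changes of these lists was not tested. Cdh1, listed among the integrin ligands, is also one of the keratinocyte markers and fell at 1.5 days (log2 -2.95, adjusted p = 0.0127). Nid2, a nidogen that links laminin to collagen IV, held 42.3, 23.98 and 20.2 CPM in NW and 333, 346 and 129 CPM at 3 days, and rose by log2 2.73 at 1.5 days and 3.23 at 3 days (adjusted p = 0.00317 and 0.00153). Hspg2, perlecan, rose by log2 1.59, 1.97 and 1.95 (adjusted p = 0.0048, 0.00149 and 0.0018), and Fbln2, a fibulin that binds laminin chains, by 1.26, 2.13 and 2.55 (adjusted p = 0.00912, 0.00049 and 0.000164). Col4a4, a collagen IV chain of restricted expression, fell, with log2 changes of -2.07, -1.40 and -1.52 (adjusted p = 0.00329, 0.0235 and 0.0182).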

How the data were processed

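RNA was measured in 12 libraries of sorted SCA1+ cells, 3 mice in each of 4 groups. The authors deposited a table of whole-number read counts per gene with exon lengths; per the submitters' processing notes it was made with STAR, SAMtools, featureCounts 2.0.0 and Partek on mm10. Per the labels' protocols the libraries came from SMART-Seq v4 cDNA and Nextera XT, which keep no strand, so reads of overlapping genes cannot be told apart: 5 members share exon bases with another gene, from 0.193% (Itga7) to 9.55% (Itgb4). SMART-Seq counts are reads without molecular identifiers. Depth was 26389453 to 43493475 counts; floors of 3 counts cover counting error only.

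Counts were tested in R 4.3.3 with edgeR 4.0.16 (filterByExpr, TMM, robust quasi-likelihood, group as the only term, all 12 libraries, adjusted p below 0.05). The standard error is the log2 change over the square root of F. Alternatives used DESeq2 1.42.0, limma 3.58.1, other scalings and filters, a replicate block, the keratinocyte score and each library left out. The fit was tested on simulated data. Values of 1 member are not reported here. The members and lists were chosen with earlier results of these data known. Chains whose mean reached 5 CPM in some group are otherwise given by sample, and the others by range; of each pathway list the 4 genes with the smallest F-test p are named. Coordinates come from GENCODE mm10 annotation and RefSeq. The labels say that mice differ between groups, and each library is 1 mouse.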

Additional observations from a re-analysis of the deposited data

Results flagged for a closer look

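Effects against NW that differed between wound times, by the edgeR contrast of the times themselves, were found for 4 chains, of 36 tested in each of 3 contrasts. From 16 hours to 1.5 days 2 of the 36 passed, against 2.86% of all genes. From 16 hours to 3 days 4 passed, near the 9.53% of all genes, and from 1.5 to 3 days 0 passed, against 0.141%. For Lamb1 the effect at 1.5 days exceeded that at 16 hours by log2 1.27, and the effect at 3 days exceeded it by 2.29. For Itga11 the differences were 2.22 at 1.5 days and 3.19 at 3 days, with an effect of -2.06 at 16 hours and of 1.13 at 3 days. For Itgb5 the effect at 3 days exceeded that at 16 hours by 1.63. For Itga8 the fitted difference between 3 days and 16 hours was 8.45, which depends on the prior count because the 16-hour libraries held 0 counts. Adjusted p-values ranged from 0.000853 for Lamb1 at 3 days to 0.0457 for Lamb1 at 1.5 days.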

How the results depend on the processing

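No called change turned sign under any alternative. With the keratinocyte score, differences from NW that had not passed turned sign and passed: Itga3 (log2 1.55), Lamb3 (1.52) and Itga6 (1.49) at 16 hours and for Itgb4 (2.04) and Lama3 (2.68) at 1.5 days; the cause was not tested. Counts with the score were 3 laminins at 16 hours against 0, 3 integrins at 1.5 days against 8, 4 integrins at 3 days against 10, and, for both families, 2 from 1.5 to 3 days against 0 and 7 from 16 hours to 3 days against 4. For the laminins at 16 hours, against 0, DESeq2 size factors, library totals without TMM and a fit of only the groups compared gave 1 each, and the DESeq2 test and limma-voom 2 each. The DESeq2 test gave 5 laminins at 1.5 days and 5 at 3 days against 3 and 3, and for both families 5 from 16 hours to 1.5 days against 2 and 7 from 16 hours to 3 days against 4. A fit of only the groups compared gave 5 laminins at 1.5 days. The share of all genes that passed under each alternative was not counted. A gain or loss of calls in the members cannot therefore be told apart from one in the whole table. Library totals moved the median of all genes by -0.12 at 3 days against NW and by -0.17 against 16 hours.

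Leaving out 1 library gave 10 to 12 integrins at 16 hours, 5 to 9 at 1.5 days, 6 to 11 at 3 days and 7 to 14 for any difference. For laminins it gave 0 to 1, 2 to 4, 2 to 4 and 2 to 3. For both families it gave 0 to 3 from 16 hours to 1.5 days, 0 to 0 from 1.5 to 3 days and 3 to 5 from 16 hours to 3 days. Same-numbered libraries of different groups correlated at -0.17 to 0.17 in their deviations, with 2 of 18 pairs over 0.1. Pairs with different numbers correlated at -0.20 to 0.20, with 9 of 36 over 0.1. Such correlations cannot exclude a pairing, but the labels say that mice differ between groups. With a replicate block 5 integrins passed at 1.5 days against 8, and 1 chain from 16 hours to 1.5 days against 2. The share of all genes was not counted for the fits with a replicate block or with a library left out. Chains near 0 counts, such as Itgb8, Itga8 and Itgam, are limited by depth.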
